A study of Mus musculus with 56 samples.

Results

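The 7 genes described here respond to steroid hormones in many tissues and were followed in thymic epithelial cells (TECs) of the mouse over late gestation and the month after birth. They are *Fkbp5* (ENSMUSG00000024222.16), *Tsc22d3* (ENSMUSG00000031431.13), *Zbtb16* (ENSMUSG00000066687.5), *Per1* (ENSMUSG00000020893.17), *Sgk1* (ENSMUSG00000019970.15), *Klf9* (ENSMUSG00000033863.1) and *Areg* (ENSMUSG00000029378.5). These 7 of the 50600 genes in the deposited tables were taken by name, and all of them were found through their Ensembl identifiers. On GRCm38, *Fkbp5* spans chr17:28399094-28517527 (minus strand), *Tsc22d3* chrX:140539528-140600659 (minus), *Zbtb16* chr9:48654297-48836222 (minus) and *Per1* chr11:69095217-69109960 (plus). *Sgk1* spans chr10:21882184-21999903 (plus), *Klf9* chr19:23141226-23168134 (plus) and *Areg* chr5:91139599-91148432 (plus).

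RNA was sequenced from cells sorted as EpCAM+ CD45- and split by binding of the lectin UEA1 into cortical TECs (cTECs, UEA1-) and medullary TECs (mTECs, UEA1+), with 1 B6.SJL female mouse behind each sample. The females had been mated with BALB/cJ males and their pups were removed at birth. Each cell type had 28 samples at 16 time points. Age-matched non-pregnant controls (NPC), day 18 of gestation (D-2), the day of birth (D0) and days 3, 6 and 12 after it (D3, D6, D12) had 3 samples each. The other 10 time points (D1, D2, D4 and D5 in the first week, then D8 and D10, and 4 late ones, D16 to D28) had 1 sample each and no replicate check. The time of day at which mice were killed is not given in the sources used here.

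Steroid hormones enter the cell and bind receptors of the nuclear receptor family, which are held ready by heat-shock chaperones and, once bound, attach to DNA at short palindromes called glucocorticoid response elements (GREs). The glucocorticoid, progesterone, androgen and mineralocorticoid receptors share this element, so that one target gene can answer to several hormones. In the thymus, glucocorticoids and sex steroids are known above all for shrinking the organ, and progesterone is high in gestation and drops at birth. Of the 7 genes, *Fkbp5* encodes a co-chaperone that lowers the affinity of the glucocorticoid receptor, and *Tsc22d3* encodes GILZ, an anti-inflammatory leucine zipper protein. *Zbtb16* (PLZF) and *Klf9* encode zinc finger transcription factors, *Per1* a repressor of the circadian clock, *Sgk1* a serum- and glucocorticoid-induced kinase, and *Areg* amphiregulin, a ligand of the EGF receptor.

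The RefSeq table of promoter sequences (GRCm38.p6) held 6 of the 7 genes, with 14 start sites among them, of which *Sgk1* had 6. The 250 bases before each start were searched on both strands for a GRE (AGAACA, then 3 bases of any kind, then TGTTCT), for a single GRE arm (AGAACA) and for GNACA and TGTNC 3 bases apart. They were also searched for an estrogen response element arm (GGTCA) and its palindrome with 3 bases between the arms, for an E-box (CACGTG, the site of clock proteins), and for a cyclic AMP response element (CRE, TGACGTCA) and its arm (TGACG). The GRE was in 1 of the 14, before 1 start of *Sgk1*, with its first base at position -189 from the start, and in 3 of all 32851 promoters of the table (0.00913%). The same letters also give the looser GNACA and TGTNC match, which 0.387% of all promoters held. A single GRE arm was in 4 of the 14 (16.1% of all promoters), an E-box in 3 (6.02%), a CRE in 1 (1.55%), a CRE arm in 6 (17.8%) and an estrogen response element arm in 7 (35.2%). The estrogen palindrome was in none of the 14, and was in 0.0639% of all promoters.

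The 4 promoters printed here are that of *Sgk1* for its GRE, that of *Klf9* since this gene carried the changes that passed the thresholds, that of *Per1* for its E-box, at position -166 from the start, and that of *Areg* for its CRE, at -61. They lie at chr10:21993640-21993889 (*Sgk1*), chr19:23140976-23141225 (*Klf9*), chr11:69098699-69098948 (*Per1*) and chr5:91139349-91139598 (*Areg*), all on the plus strand, and end at the base before the start. Capitals mark GREs and their arms, E-boxes, and CREs and their arms; in *Sgk1* an E-box and a GRE arm overlap near the 5′ end.
Sgk1: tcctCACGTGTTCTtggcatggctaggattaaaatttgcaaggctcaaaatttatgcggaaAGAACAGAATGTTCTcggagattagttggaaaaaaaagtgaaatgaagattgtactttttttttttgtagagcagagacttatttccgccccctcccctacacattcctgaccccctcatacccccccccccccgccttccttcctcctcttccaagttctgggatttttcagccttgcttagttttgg
Klf9: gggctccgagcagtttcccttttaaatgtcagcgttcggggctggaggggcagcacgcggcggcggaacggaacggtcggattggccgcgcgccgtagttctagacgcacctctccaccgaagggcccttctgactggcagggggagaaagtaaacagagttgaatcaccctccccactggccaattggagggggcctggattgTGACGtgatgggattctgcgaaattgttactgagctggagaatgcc
Per1: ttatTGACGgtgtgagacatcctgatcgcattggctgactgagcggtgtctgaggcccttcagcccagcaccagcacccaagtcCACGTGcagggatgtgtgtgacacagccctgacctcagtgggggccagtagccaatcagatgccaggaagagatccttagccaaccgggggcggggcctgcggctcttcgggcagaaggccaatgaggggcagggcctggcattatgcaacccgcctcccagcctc
Areg: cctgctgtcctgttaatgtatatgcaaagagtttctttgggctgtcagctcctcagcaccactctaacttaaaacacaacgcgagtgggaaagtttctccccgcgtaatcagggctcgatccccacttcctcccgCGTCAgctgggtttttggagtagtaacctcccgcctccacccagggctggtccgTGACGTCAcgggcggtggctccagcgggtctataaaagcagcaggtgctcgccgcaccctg

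A total of 4561208 to 108547384 expected counts was behind each sample (median 17972567). The gates were checked with marker genes. The summed level of 6 cTEC markers (*Psmb11*, *Prss16*, *Ly75*, *Ccl25*, *Dll4* and *Enpep*) was 2315 to 4916 FPKM (a level per transcript length and library size) in cTECs and 495 to 645 in mTECs of NPC mice. At D-2 it was only 484 to 926 FPKM in cTECs against 268 to 572 in mTECs, and it was 5906 to 7189 in cTECs at D6. The summed mTEC markers were 5779 to 8081 FPKM in cTECs at D-2, 3641 to 4248 in cTECs at D6 and 10362 to 16893 in mTECs at D-2. The sum of 10 thymocyte markers was 18.9 to 20.4 FPKM in cTECs at D-2 and 61.9 to 86.5 at D6. In the sum of 12 immediate-early and heat-shock genes, which rise when cells are handled or stressed, 5 libraries stood over 1.5 times above the next of their group of 3. These were replicate 5 of NPC (17514 FPKM summed) and of D6 (14799.6) in cTECs, and replicate 4 of NPC (10161), replicate 3 of D3 (15619) and replicate 1 of D6 (9291) in mTECs.

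The 7 genes did not follow 1 course. *Klf9* and *Zbtb16* had their highest time-point mean at D-2 in both cell types. In cTECs all D6 samples of these genes, *Per1* and *Sgk1* lay below all D-2 samples, as did those of 12.3% of all genes tested. Only *Klf9* passed both thresholds in a comparison of time points, and *Fkbp5* and *Tsc22d3* stayed under a 2-fold fitted change in every comparison. *Areg* was at or near 0 in many samples. In cTECs, D-2 also gave the highest of the 16 means for *Per1* and *Areg*, where 10 of the 16 are single samples. This only describes each gene, since the share of all genes with their highest mean at D-2 was not counted. *Areg* in cTECs had a mean of only 0.92 FPKM there and failed the filter for testing. In bulk samples, a lower level can come from fewer cells that express the gene or from less RNA per cell, and these cannot be told apart.

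**Figure D1:**
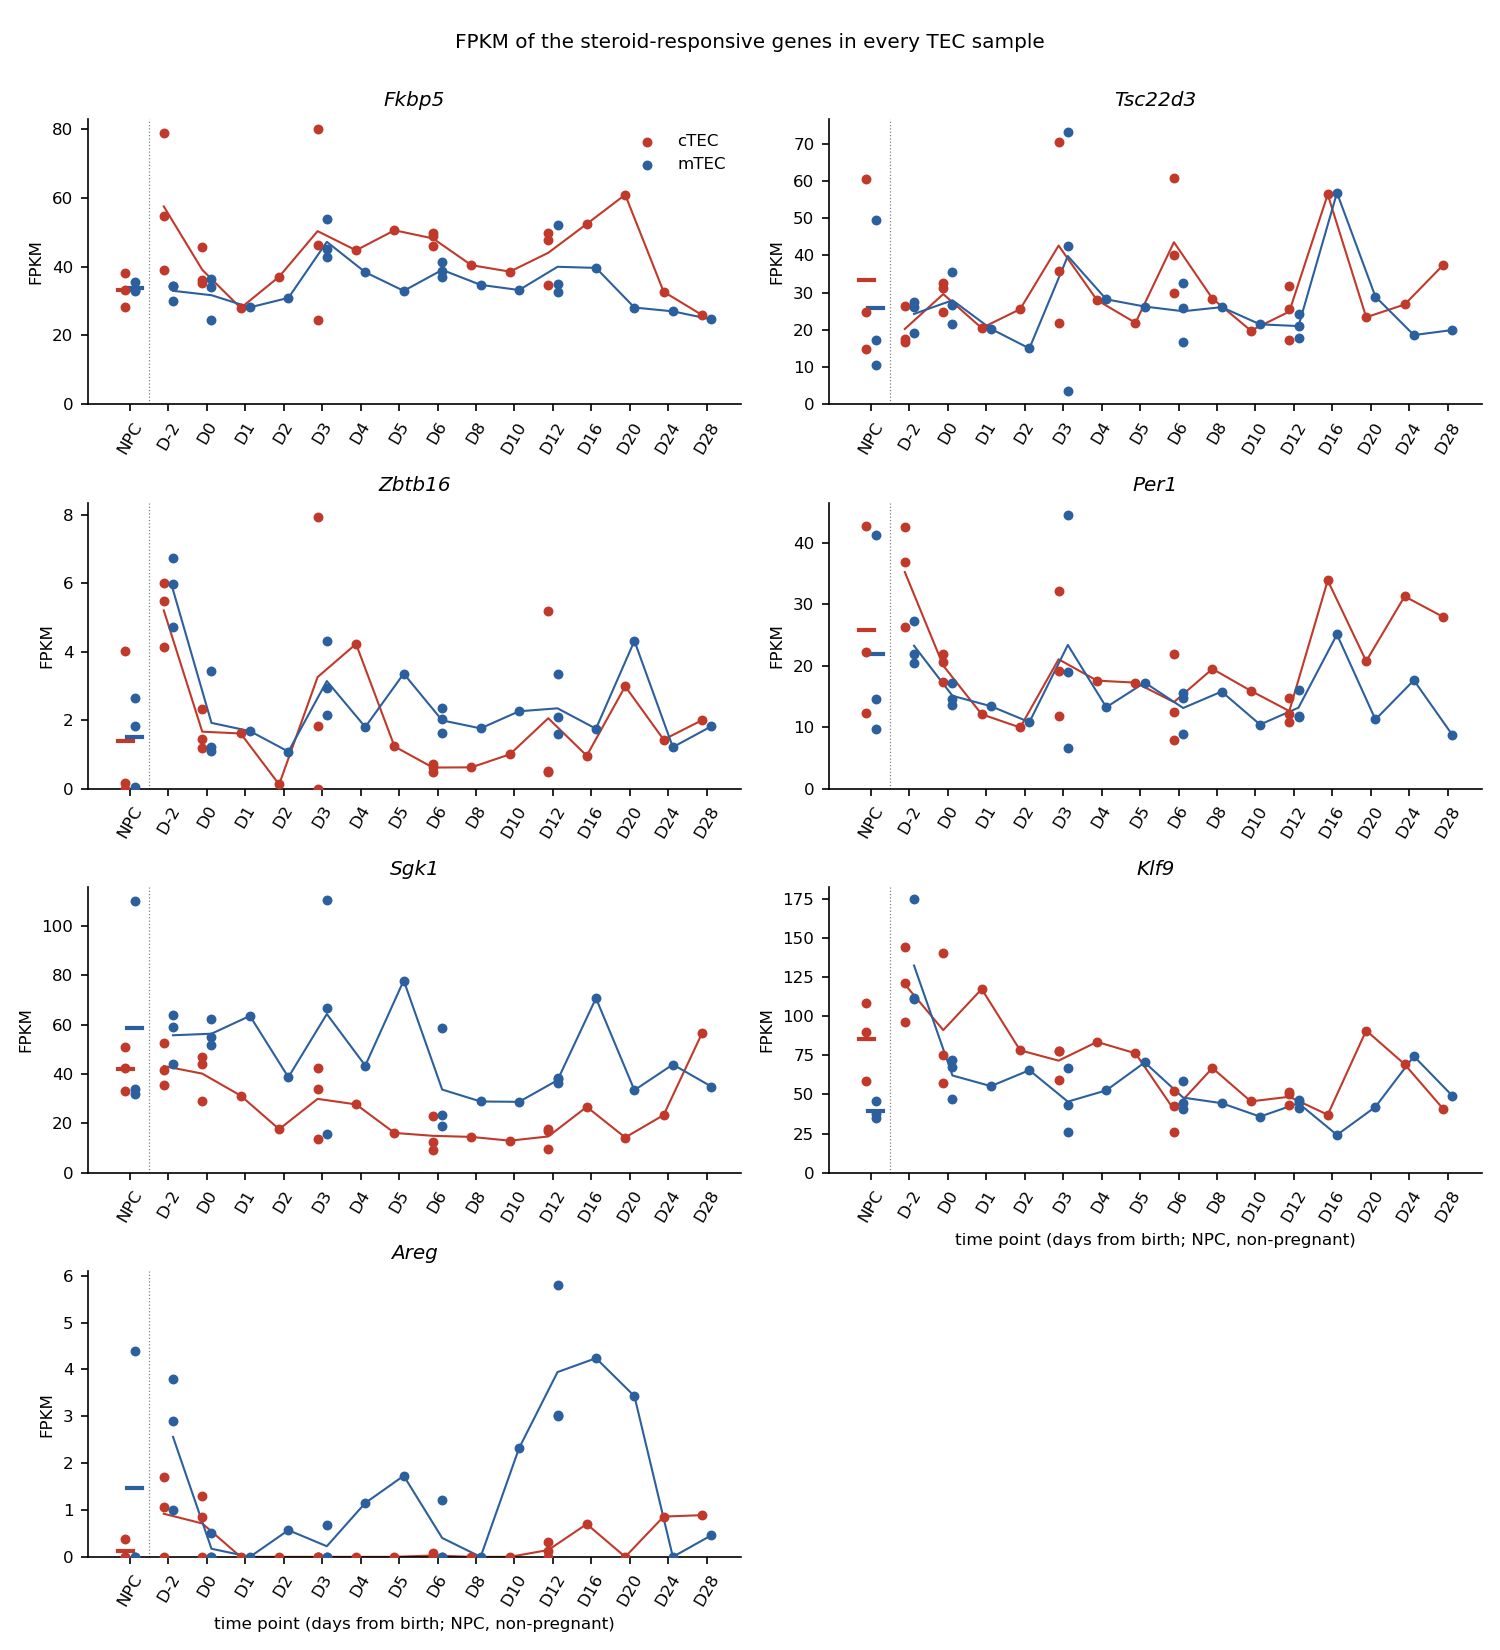
FPKM of the 7 genes (y axis, linear, a scale for each gene) in every sample of cTECs (red) and mTECs (blue) at the 16 time points (x axis, not to scale in days); points are samples, lines join time-point means from D-2 on, and bars mark the NPC mean. The means of *Klf9* and *Zbtb16* are highest at D-2 in both cell types, while *Tsc22d3* and *Sgk1* scatter within time points.

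*Klf9* gave the clearest course in mTECs. The 3 NPC samples of mTECs held 45.9, 37.3 and 35.2 FPKM, and the 3 D-2 samples held 175, 111 and 112 FPKM. All D-2 values were above all NPC values, and the fold change was 1.69 on the log2 scale (SE 0.23, adjusted p = 0.00172, limma-voom), which passed both thresholds (a fold-change of at least 2 and an adjusted p of at most 0.01). In mTECs, 0.569% of all genes tested (101 of 17743) passed them in this comparison.

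After birth, *Klf9* in mTECs was below its D-2 level from D0 on. At D0 it was 67.7, 71.8 and 46.9 FPKM, at D3 66.8, 26.1 and 43.4, at D6 58.8, 44.4 and 40.8, and at D12 46.6, 41.3 and 45.3. All 22 samples after birth lay below the lowest D-2 sample, and their range was 24.1 FPKM (D16) to 74.4 (D24). Against D-2, the log2 fold changes were -1.10 at D0 (SE 0.23, adjusted p = 0.262), -1.76 at D3 (SE 0.26, adjusted p = 0.0109) and -1.40 at D6 (SE 0.25, adjusted p = 0.0167), so that none passed the adjusted p of 0.01 in this fit. Other fits did pass, at D3 with DESeq2 (adjusted p = 2.37e-05), sample quality weights (0.00725), the title number as a block (0.00542), and without D3 replicate 1 (0.00431) or D3 replicate 3 (0.00269), at D6 with DESeq2 (8.27e-05) and quality weights (2.36e-06), and at D0 with quality weights (0.000860). The change of *Klf9* still did not pass in 6 of 11 alternatives at D3, 8 of 11 at D6 and 9 of 10 at D0. With 1 replicate left out it did not pass in 4 of 6 fits at D3, 6 of 6 at D6 and 6 of 6 at D0. Over all of these fits the adjusted p reached 0.0882 at D3, 0.171 at D6 and 0.985 at D0. At D12, *Klf9* in mTECs overlapped with NPC.

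In cTECs, *Klf9* was already high without pregnancy, and its lower values came later. NPC samples held 89.8, 108 and 58.6 FPKM and D-2 samples 121, 96.1 and 144, with overlap between them. At D0 the values were 75.3, 57.6 and 140.5 FPKM, which overlapped with D-2, and the single D1 sample held 117. At D3 (77.7, 59.5 and 77.7 FPKM) all samples lay below those of D-2, and at D6 (52.2, 26.1 and 42.5) they lay below those of D3 too. The change from D-2 to D6 was -1.66 on the log2 scale (SE 0.32, adjusted p = 0.00446) and passed both thresholds, as did 1.58% of all genes tested (250 of 15845). The values stayed low at D12 (50.5, 43.6 and 51.6 FPKM), below all 3 NPC values, and the single samples from D16 to D28 held 37.0, 90.9, 69.3 and 40.9.

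These calls have limits. The call in cTECs was lost with no filter on low genes (adjusted p = 0.125), with the title number as a block (0.0332), without D-2 replicate 1 (adjusted p = 0.0184), D-2 replicate 4 (0.0256) or D6 replicate 4 (0.0403) and with FPKM in place of counts (0.0113), and the call in mTECs without NPC replicate 3 (0.0166), with the compared time points alone (0.0399) and with FPKM in place of counts (0.0376), with the same direction each time. The cTEC markers moved the opposite way in the same samples, as all 6 were higher at D6 than at D-2 in cTECs and 5 of them passed the thresholds, and the part of a shift in the sorted cells was not tested. *Klf9* has a constant effective length in these tables (3179 to 3181 bases), so that its FPKM follows its counts, which ran from 591 to 22609.

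*Zbtb16* stood out at D-2 in both cell types, at a low level. In mTECs, the NPC samples held 2.65, 0.04 and 1.83 FPKM and the D-2 samples 6.73, 4.73 and 5.97, with no overlap. The D0 samples held 1.22, 3.44 and 1.10 FPKM, and the 22 samples after birth all lay below the lowest of D-2, with the highest at 4.32 (D3 and D20). Against NPC, D-2 fitted at a log2 fold change of 4.03 (SE 0.99, adjusted p = 0.0358), which did not pass the adjusted p of 0.01. Without NPC replicate 3, the sample at 0.04 FPKM, it was 1.44 (other single samples left out gave up to 5.03), and edgeR gave 2.10. The ratio of mean FPKM was 3.86. Against D-2, *Zbtb16* in mTECs fitted at -1.59 at D3 (SE 0.82, adjusted p = 0.367) and at -1.49 at D6 (SE 0.75, adjusted p = 0.718).

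In cTECs, *Zbtb16* held 0.16, 0 and 4.02 FPKM in NPC, 4.14, 5.49 and 6.00 at D-2, and 2.34, 1.19 and 1.46 at D0. D-2 lay above NPC and D0 below D-2 with no overlap, and D6 was lower still (0.73, 0.47 and 0.64 FPKM). At D3 the samples were far apart (1.83, 0 and 7.95 FPKM), as they were at D12 (0.50, 5.19 and 0.48). The log2 fold changes were 4.99 for D-2 against NPC (SE 1.63, adjusted p = 0.336), -1.97 at D0 (SE 0.88, adjusted p = 0.999) and -3.14 at D6 (SE 1.26, adjusted p = 0.171) against D-2. At D3 against D-2 the fit gave -3.40 (SE 1.56, adjusted p = 0.251). Single samples decided these sizes, as D-2 against NPC went to 2.81 without NPC replicate 4 and to 7.06 without NPC replicate 5, and D3 against D-2 to -0.59 without D3 replicate 2 and to -5.22 without D3 replicate 3. None passed the thresholds except D6 against D-2 when only the compared time points were fitted (adjusted p = 0.00308), and with counts of 0 to 368 per cTEC sample the replicate error is large.

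PLZF also marks NKT and innate lymphoid cells, so the 9 genes listed for NKT, innate lymphoid and regulatory T cells were set beside it. Of these defining markers, *Ncr1* was at 0 in all 28 cTEC samples and in 25 of 28 mTEC samples, and *Klrb1c* was at 0 in 26 of 28 in both. The summed level of the 9 genes was 37.1 to 48.6 FPKM at D-2 and 29.5 to 45.3 in NPC in cTECs, and 42.3 to 45.7 and 44.0 to 53.6 in mTECs. The D-2 and NPC samples overlapped in this sum. Gene by gene, those of the 9 that passed the filter had a median of 0.68 on the log2 scale for D-2 against NPC in cTECs (3 of 4 positive, all genes 0.03) and of 1.02 in mTECs (5 of 6 positive, all genes 0.12), with 0 past the thresholds, so that most moved in the direction of *Zbtb16*. At D6 the sum was lower than at D-2, as *Zbtb16* was, at 21.6 to 29.0 FPKM in cTECs and 26.2 to 29.5 in mTECs, and over the 28 samples its log2 level had an r of 0.53 with *Zbtb16* in cTECs and 0.13 in mTECs. The part of these cells in the result was not tested.

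*Per1* in cTECs was highest at D-2. The D-2 samples held 36.9, 42.5 and 26.2 FPKM, and the D0 samples 17.4, 20.7 and 21.95, all lower. The D6 samples held 12.5, 7.82 and 21.9 FPKM and the D12 samples 12.2, 14.8 and 10.8. Of the 22 samples after birth, 18 were below all 3 D-2 samples and 0 above all 3, while the NPC samples spanned 12.3, 22.1 and 42.7. The low values did not last in the late single samples. D16 (33.85 FPKM), D24 (31.3) and D28 (27.9) lay within the range of D-2, and D20 (20.7) lay below it. The change from D-2 to D6 was -1.43 on the log2 scale (SE 0.33, adjusted p = 0.0140), short of the adjusted p of 0.01. It passed without the cTEC libraries high in immediate-early and heat-shock genes (-1.69, adjusted p = 0.000291), an alternative chosen after seeing the data. These include D6 replicate 5, the highest D6 sample of *Per1* (21.9 FPKM), so that leaving it out necessarily lowered the D6 mean. In mTECs the samples of D-2 (20.5, 27.3 and 21.9 FPKM) lay above those of D0 (14.6, 13.5 and 17.1) and of D6 (15.6, 14.8 and 8.94), by less than 2-fold.

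*Sgk1* in cTECs overlapped from NPC to D3 and was lower at D6 and D12. NPC samples held 33.2, 42.4 and 50.9 FPKM, D-2 samples 41.7, 52.5 and 35.6, and D0 samples 47.1, 44.2 and 29.3, with overlap throughout. At D3 they ran from 13.6 to 42.5 FPKM (median 33.8), which still overlapped with NPC and D-2. At D6 they held 9.17, 12.6 and 23.1 FPKM and at D12 9.48, 16.9 and 17.7, all below every NPC and D-2 sample. The single D28 sample, at 56.6 FPKM, was the highest of all cTEC samples. The change was -1.43 on the log2 scale at D6 against D-2 (SE 0.39, adjusted p = 0.0383) and -1.06 at D12 against NPC (SE 0.41, adjusted p = 0.709), neither past the thresholds. In mTECs, the D-2 samples held 44.2, 64.0 and 59.1 FPKM and the D6 samples 58.7, 23.3 and 19.1, which overlapped. The effective length that RSEM used for *Sgk1* ran from 868 to 2372 bases between samples, so its FPKM also carries which transcripts were assigned, while the test on counts does not use that length. The same holds for *Tsc22d3* (1145 to 2042 bases), *Zbtb16* (2421 to 5031) and *Per1* (2015 to 4552).

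*Fkbp5* in mTECs was alike in FPKM in NPC and at D-2 and higher in FPKM at D3 and D6. The NPC samples held 33.1, 33.0 and 35.5 FPKM and the D-2 samples 34.4, 30 and 34.5, which overlapped. At D3 they held 45.1, 42.7 and 53.7 FPKM and at D6 41.5, 38.6 and 37.0, all above the D-2 samples, and the time-point means spanned 24.7 (D28) to 47.2 FPKM (D3). In cTECs the D-2 samples (78.7, 38.9 and 54.7 FPKM) lay above NPC (38.1, 28.2 and 33.2) and overlapped with D0 (45.8, 36.1 and 35.3). At D3 the cTEC samples ran from 24.6 to 80.1 FPKM. *Fkbp5* changed by less than 2-fold in every comparison of the fit. In mTECs the fit to counts gave smaller rises from D-2 to D3 and D6 than FPKM did, and neither passed the thresholds. The effective length of *Fkbp5* ran from 1789 to 3562 bases between samples, so its FPKM also carries which transcripts were assigned.

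*Tsc22d3* varied widely within time points. In cTECs the NPC samples held 14.8, 24.7 and 60.5 FPKM, the D-2 samples 16.8, 26.3 and 17.6, and the D6 samples 40.1, 29.8 and 60.7. D6 lay above D-2 in cTECs with a ratio of means of 2.15, and the fitted fold change was below 2. In mTECs the NPC samples held 10.7, 17.3 and 49.4 FPKM, the D-2 samples 26.2, 19.1 and 27.5, and the D3 samples 3.72, 42.6 and 73.1. The D3 sample at 3.72 FPKM (replicate 1) was among the shallowest of all, with 4879103 counts.

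*Areg* was hardly expressed. In cTECs it was listed at 0 in 17 of 28 samples and reached 1.70 FPKM at most, in a D-2 sample, and it failed the filter of a mean of 0.5 FPKM there and was not tested. In mTECs it was listed at 0 in 11 of 28 samples, with 0, 0 and 4.39 FPKM in NPC and 3.8, 2.89 and 0.99 at D-2. At D0 the values were 0, 0 and 0.52 FPKM and at D3 0, 0 and 0.68, below all of D-2, and the highest replicated group was D12 with 3.02, 3.01 and 5.80, beside 4.24 in the single D16 sample. The log2 fold changes of 4.03 for D-2 against NPC (SE 1.79, adjusted p = 0.263) and -4.30 for D0 against D-2 (SE 1.77, adjusted p = 0.755) came with samples at 0 in NPC and D0. NPC replicate 4 was the NPC sample at 4.39 FPKM and is 1 of the libraries high in immediate-early and heat-shock genes. Leaving it out left NPC at 0, which by itself enlarged any rise over NPC. The first change was then 6.90 (adjusted p = 0.0130), and 6.85 without all such libraries of mTECs (adjusted p = 0.00705, past the thresholds). With all samples, edgeR gave 0.92 (adjusted p = 1). Against NPC, D12 gave 5.03 (SE 1.68, adjusted p = 0.284), and 7.82 without NPC replicate 4 (adjusted p = 0.00837, past the thresholds). Both passes thus rest on leaving out that 1 sample. Fits to D3 (-3.74, SE 1.77, adjusted p = 0.322) and D6 (-3.54, SE 1.78, adjusted p = 0.719) against D-2 did not pass. Summed macrophage and dendritic markers had an r of 0.57 in cTECs and 0.51 in mTECs with *Areg* over the 28 samples, and their part in its level was not tested.

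Across the comparisons within a cell type, few member genes passed both thresholds, read against the share of all genes that did. At D-2 against NPC, 0 of the 6 genes tested in cTECs passed (0.0947% of all genes did) and 1 of 7 in mTECs, *Klf9*. At D6 against D-2, 1 of 6 passed in cTECs, *Klf9*, and 0 of 7 in mTECs (0.0113%). At D3 against D-2, 0 of 6 passed in cTECs (0.114%) and 0 of 7 in mTECs (0.0113%). In the D3 fits the median of all genes stood at -0.24 in cTECs and -0.27 in mTECs on the log2 scale, and members' values there are relative to it. Read by overlap alone, 4 of 6 genes in cTECs (*Zbtb16*, *Per1*, *Sgk1* and *Klf9*) and 3 of 7 in mTECs (*Zbtb16*, *Per1* and *Klf9*) had all D6 samples below all D-2 samples, as did 12.3% and 12.9% of all genes. For D-2 above NPC the counts were 2 of 6 in cTECs (*Fkbp5* and *Zbtb16*) and 2 of 7 in mTECs (*Zbtb16* and *Klf9*), beside 6.54% and 6.28% of all genes.

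**Figure D2:**
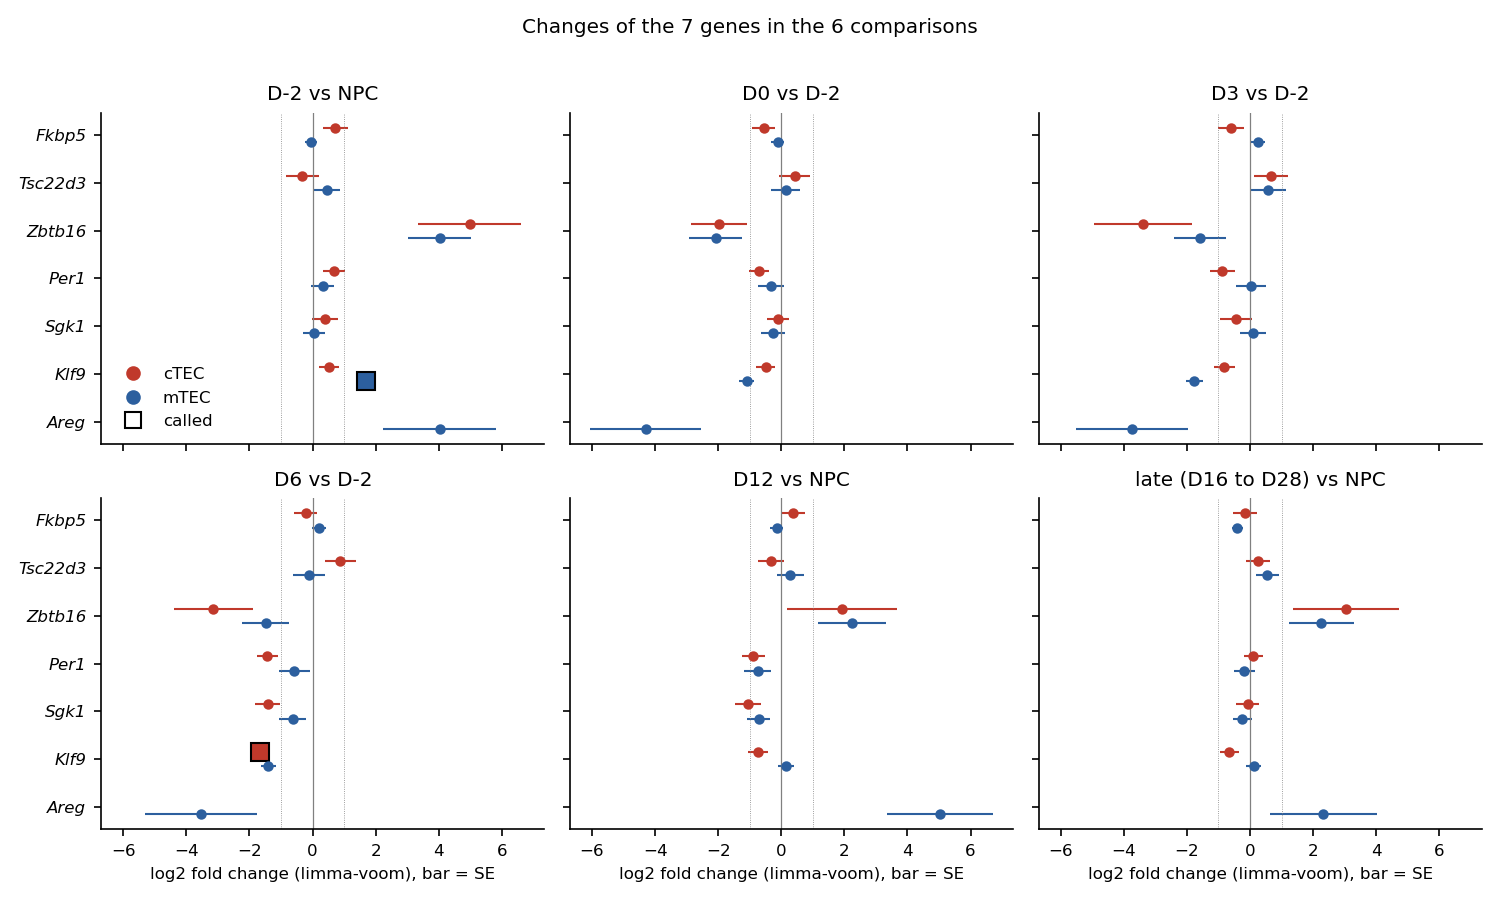
Log2 fold changes (x axis) of the 7 genes (y axis) in the 6 comparisons within cTECs (red) and mTECs (blue), with the standard error as a bar and dotted lines at a fold-change of 2; large squares with a black edge passed both thresholds, and *Areg* was not tested in cTECs. *Klf9* carried both of these calls, at 1.69 in mTECs (D-2 against NPC) and -1.66 in cTECs (D6 against D-2).

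The comparison of D0 with D-2 asked what changed across birth itself. No gene of any kind passed the thresholds with limma-voom in either cell type (0% of those tested), although 623 genes in cTECs and 1136 in mTECs had an unadjusted p under 0.05. edgeR called 0 in both, and DESeq2 15 and 11, none of them a member. With sample quality weights 78 genes were called in mTECs, among them *Klf9* (-1.41, adjusted p = 0.000860). The 5 members of cTECs other than *Zbtb16* moved between -0.70 and 0.43 on the log2 scale, and the 4 of mTECs other than *Zbtb16*, *Klf9* and *Areg* between -0.33 and 0.14. *Zbtb16* in mTECs fitted at -2.07 (SE 0.84, adjusted p = 0.747).

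Later values were set against NPC. At D12, no gene passed with limma-voom in either cell type (0%), with 1048 and 2119 genes at an unadjusted p under 0.05 in cTECs and mTECs, 0 and 0 calls by edgeR and 1 and 10 by DESeq2. In the 4 late samples (D16 to D28), 0 of 6 members passed in cTECs (0.0694% of all genes) and 0 of 7 in mTECs (0.00564%). The members other than *Zbtb16* and *Areg* lay between -0.66 and 0.26 on the log2 scale in cTECs, and between -0.41 and 0.54 in mTECs. *Zbtb16* stood at 3.03 (SE 1.68, adjusted p = 0.465) in late cTECs and at 2.26 (SE 1.02, adjusted p = 0.281) in late mTECs, and in mTECs this turned to -0.32 without NPC replicate 3. *Zbtb16* at D12 likewise stood at 1.92 in cTECs (SE 1.74, adjusted p = 0.888) and 2.24 in mTECs (SE 1.07, adjusted p = 0.421), turning to -0.24 without NPC replicate 4 and to -0.35 without NPC replicate 3. *Areg* in late mTECs fitted at 2.33 (SE 1.70, adjusted p = 0.516) and at -1.77 with edgeR.

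Whether cTECs and mTECs changed differently was tested in 1 fit of all 56 samples. For D-2 against NPC, the change of *Klf9* was lower in cTECs (-1.204 on the log2 scale, SE 0.42, adjusted p = 0.444), which did not pass, and no gene of any kind passed (0%, with 1480 at an unadjusted p under 0.05, 0 by edgeR and 25 by DESeq2). For D6 against D-2, 0 of the 7 members passed, beside 0.00544% of all genes. *Areg* for the first contrast (-1.70, SE 2.56, adjusted p = 0.935) and *Zbtb16* for the second (-1.65, SE 1.62, adjusted p = 1.00) had wide errors, and the other members lay between -0.96 and 0.97 on the log2 scale. The lower levels of *Per1* and *Sgk1* in cTECs at D6 are therefore not shown to differ from the changes in mTECs.

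The level of *Sgk1* did differ between the cell types. Over the 6 replicated time points it was lower in cTECs by a log2 fold change of -1.06 (SE 0.20, adjusted p = 6.26e-05), and it passed both thresholds, as did 16.8% of all genes tested. Its fold change fell below 2 with edgeR (-0.90), DESeq2 (-0.96) or FPKM in place of counts (-0.74), and without any 1 of 6 libraries, with an adjusted p of at most 0.00965 each time. *Klf9* stood higher in cTECs by 0.35 (SE 0.13, adjusted p = 0.0345), under 2-fold. *Zbtb16* (-1.05, SE 0.56, adjusted p = 0.144) and *Areg* (-1.46, SE 0.73, adjusted p = 0.116) did not pass, and *Fkbp5*, *Tsc22d3* and *Per1* differed by 0.07 to 0.25.

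*Tsc22d3*, *Per1* and *Sgk1* varied together from sample to sample within a time point. For each replicate, the deviation of log2(FPKM + 0.5) from its time-point mean was taken over the 18 samples of the 6 replicated time points. Deviations of *Tsc22d3* and *Per1* had a Pearson's r of 0.90 in cTECs and 0.92 in mTECs (Spearman's rho 0.75 and 0.78), and 0.83 and 0.84 without the 2 samples farthest from the median. For *Tsc22d3* and *Sgk1* r was 0.78 and 0.90, and for *Per1* and *Sgk1* 0.66 and 0.90. For *Klf9* and *Tsc22d3* r was -0.28 and -0.53, and -0.19 and -0.39 without the 2 samples. Each pair of values shares a library, and these are descriptions with no test.

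**Figure D3:**
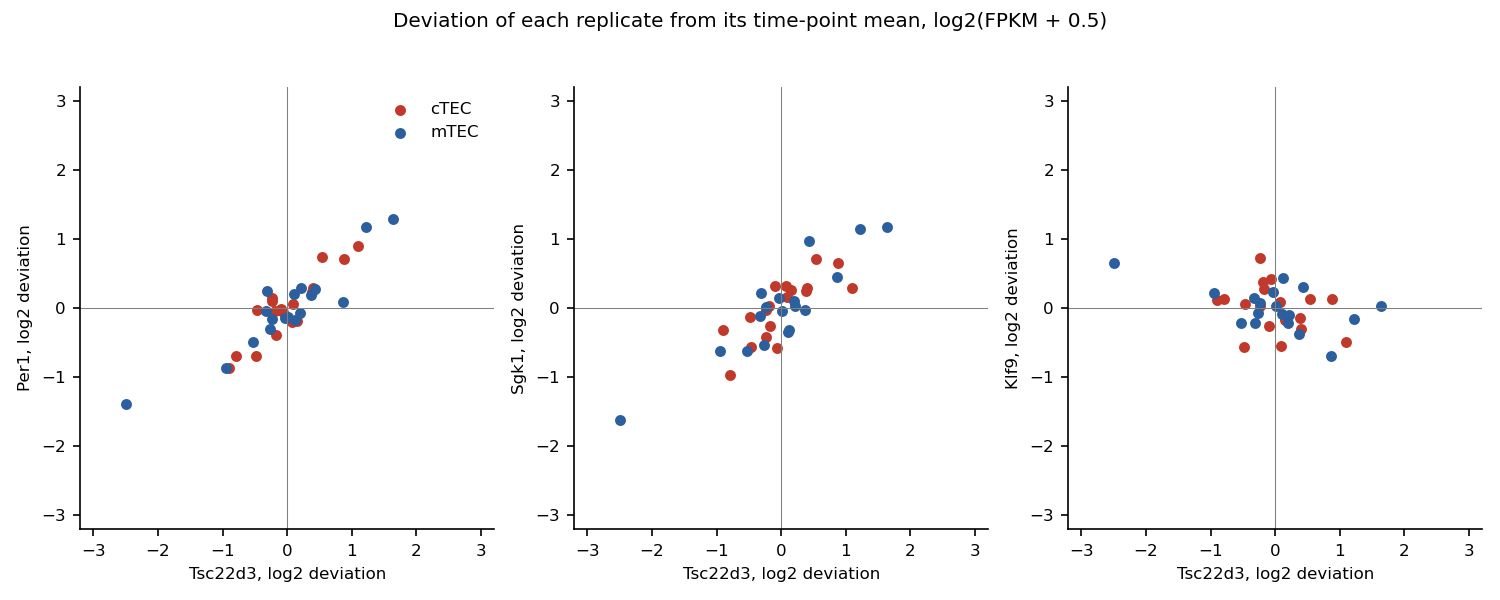
Deviation of each of 18 cTEC (red) and 18 mTEC (blue) replicates from the mean of its time point, in log2(FPKM + 0.5), for *Tsc22d3* (x axis) against *Per1*, *Sgk1* and *Klf9* (y axes). *Per1* and *Sgk1* rise with *Tsc22d3* in both cell types (r of 0.66 or more between any pair of these genes), and *Klf9* does not.

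The same genes were set beside the immediate-early and heat-shock genes. In all 5 of the libraries named above as high in these genes, *Tsc22d3*, *Per1* and *Sgk1* were also the highest of their group of 3. NPC replicate 5 in cTECs had the highest NPC values of *Tsc22d3* (60.5 FPKM), *Per1* (42.7) and *Sgk1* (50.9), and NPC replicate 4 (49.4, 41.3 and 110.3) and D3 replicate 3 (73.1, 44.5 and 111) did so in mTECs. Over the 28 samples, the log2 summed level of the 12 immediate-early and heat-shock genes had an r of 0.75 with *Sgk1* in cTECs and 0.55 in mTECs, of 0.55 and 0.51 with *Per1*, and of 0.37 and 0.27 with *Tsc22d3*. Without the 2 samples farthest from the median these were 0.74 and 0.49, 0.49 and 0.52, and 0.33 and 0.27. For the deviations within time points (18 samples), r in cTECs was 0.47 with *Sgk1*, 0.65 with *Per1* and 0.55 with *Tsc22d3*, and only 0.22, 0.37 and 0.27 without the 2 farthest samples, on which the relation there largely rested. In mTECs the deviations gave 0.60, 0.48 and 0.43, and 0.51, 0.52 and 0.46 without them. With *Klf9* it was 0.26 and 0.20, and with *Fkbp5* -0.13 and 0.40. The lower *Sgk1* and *Per1* of cTECs at D6 than at D-2 went with a lower sum in 2 of the 3 D6 samples (3965 and 3948 FPKM, against 9468 to 10516 at D-2). The D6 sample with a high sum (14799.6 FPKM) held 23.1 FPKM of *Sgk1* and 21.9 of *Per1*, above the other D6 samples and below all of D-2. This is 1 library, and the part of the immediate-early and heat-shock genes in the lower *Sgk1* and *Per1* was not tested. Each fit was repeated without those of the 5 libraries that belong to its cell type. *Klf9* then changed by -1.71 (adjusted p = 0.00597) in cTECs from D-2 to D6 and by 1.59 (adjusted p = 0.00174) in mTECs from NPC to D-2, and stayed past the thresholds. In cTECs this left the 2 D6 samples whose sums lay below all of D-2. In mTECs it took out the NPC sample with the highest sum. The part of the immediate-early and heat-shock genes in the changes of *Klf9* was thus not tested by these fits.

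**Figure D4:**
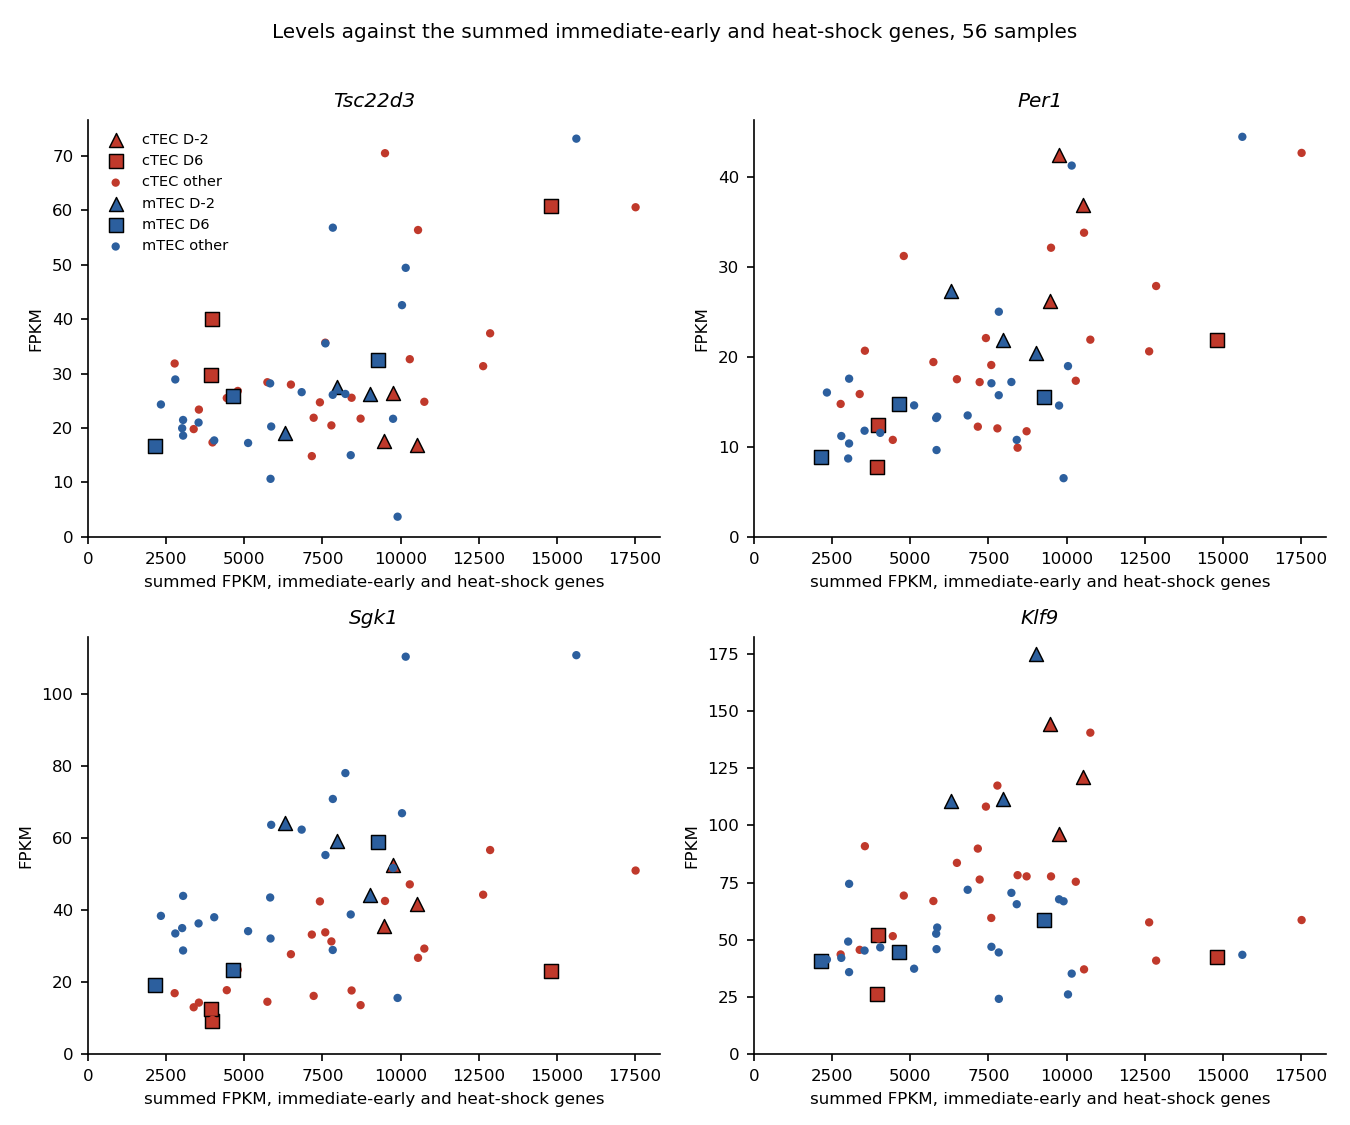
FPKM of *Tsc22d3*, *Per1*, *Sgk1* and *Klf9* (y axes) against the summed FPKM of 12 immediate-early and heat-shock genes (x axis) in all 56 samples; cTECs are red, mTECs blue, triangles D-2 and squares D6. *Sgk1* rises with the sum (r of 0.75 in cTECs and 0.55 in mTECs, on log2 values), and the cTEC D6 sample with the high sum (14799.6 FPKM) has 42.5 FPKM of *Klf9*, between the other D6 samples of cTECs.

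*Per1* was also set beside 15 other clock genes, since it cycles over the day. 0 of the 15 passed the thresholds in any of the 12 comparisons within a cell type. Their median change in cTECs was 0.62 on the log2 scale for D-2 against NPC (0.03 for all genes), -1.10 for D3 against D-2 (2 of 15 positive, all genes -0.24) and -0.22 for D6 against D-2 (-0.02 for all genes). In mTECs it was 0.72 for D-2 against NPC (12 of 15 positive, all genes 0.12). Their part in the course of *Per1* was not tested. In cTECs, the clock gene *Nr1d2* was the gene whose log2 levels were most like those of *Per1* over the 28 samples (r = 0.82).

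Other genes that steroid hormones induce were mostly lower at D6 than at D-2. Of 24 such genes on the list, 19 were tested in cTECs and 23 in mTECs. From D-2 to D6 in cTECs, 15 of the 19 had a negative log2 fold change with a median of -1.24 (all genes -0.02). Past the thresholds fell 3 of the 19, beside 1.58% of all genes that passed in either direction. These were *Dusp1*, a phosphatase of MAP kinases (612 ± 128 to 197 ± 115 FPKM, SD, n = 3), *Nfkbia*, the inhibitor of NF-κB (931 ± 293 to 332 ± 54), and *Pdk4*, a kinase that holds back pyruvate oxidation (40.1 ± 19.7 to 6.23 ± 6.44). *Dusp1* and *Nfkbia* also answer to stress and inflammation. In mTECs the median was -0.77 (all genes -0.03) and 0 of 23 passed (0.0113% of all genes did). The 12 immediate-early and heat-shock genes were mostly lower at D6 too. Their median was -0.61 in cTECs (1 of 12 positive) and -0.67 in mTECs (0 of 12 positive), and their part in the lower levels was not tested. From NPC to D-2 the median was 0.30 in cTECs (all genes 0.03) and 0.68 in mTECs (all genes 0.12), where 19 of 23 were positive and 0 passed.

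Among relatives of the 7 genes, *Klf13* and *Klf4* rose with *Klf9* in mTECs from NPC to D-2, by 1.17 (SE 0.18, adjusted p = 0.00211) and 1.69 on the log2 scale (SE 0.31, adjusted p = 0.00638). They were 2 of the 17 relatives tested in mTECs, beside 0.569% of all genes that passed in either direction. The median of the 17 was 0.58 (11 of 17 positive, all genes 0.12). Among 8 chaperones and steroid-metabolising enzymes tested in mTECs, *Hsp90aa1*, the heat-shock chaperone that holds steroid receptors, rose by 1.26 (SE 0.20, adjusted p = 0.00299). It is also a stress gene, and the immediate-early and heat-shock sum was 6300 to 9029 FPKM in these D-2 samples and 5121 to 10161 in NPC. Gene by gene, 12 of the 12 immediate-early and heat-shock genes had a positive fitted change, with a median of 0.37 (all genes 0.12) and 0 past the thresholds. The part of stress in the rises of *Hsp90aa1*, *Klf13* and *Klf4* was not tested. In cTECs, 0 of the 16 relatives and 0 of the 6 chaperones and enzymes passed in the same comparison. Of the receptors, *Nr3c1*, the glucocorticoid receptor, held 33.6 ± 0.8 FPKM in cTECs at D-2 (SD, n = 3) and 37.2 ± 4.8 in NPC, and 0 of 5 tested receptors passed the thresholds in any comparison of time points.

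The genes most like each member were listed by Pearson's r of log2(FPKM + 0.5) over the 28 samples, among 10068 genes in cTECs and 10502 in mTECs with a mean of at least 5 FPKM. They describe shared levels in shared libraries, over time points and mice together. For *Klf9* they were *Nfkbia* (0.87), *Glg1* (0.87) and *Sox9* (0.86) in cTECs and *Sox9* (0.91), *Bcl2* (0.90) and *Cir1* (0.89) in mTECs. For *Sgk1* they included *Itprid2* (0.82) and *Klf4* (0.79) in cTECs and *Per1*, *Mafk* and *Eif4a2* in mTECs (0.82 each). For *Per1* they were *Nr1d2* (0.82), *Arid5b* (0.77) and *Clk2* (0.76) in cTECs and *Eif4a2* (0.87), *Slc38a2* (0.84) and *Tob1* (0.82) in mTECs.

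For *Tsc22d3* the most alike genes were *Spcs3* (0.83), *Ptk7* (0.79) and *Pi4kb* (0.77) in cTECs and *Cdkn1b* (0.87), *Akap8* (0.85) and *Chmp5* (0.84) in mTECs. *Fkbp5* had lower values, with *Gpr146* (0.69), *Inpp5a* (0.68) and *Bola3* (0.64) in cTECs and *Enoph1* (0.78), *C330007P06Rik* (0.78) and *Crip3* (0.73) in mTECs. For *Zbtb16* they were *St6gal1* (0.76), *Mknk2* (0.70) and *Tns4* (0.70) in cTECs and *Cmpk1* (0.72), *Pwwp2a* (0.71) and *Coq8b* (0.70) in mTECs. No list is given for *Areg*, which was at 0 in many samples.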

How the data were processed

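RNA of 56 sorted TEC samples (28 per cell type) was compared by the groups in their labels. Per the labels and methods, the authors trimmed reads with Trimmomatic 0.35, aligned them to GRCm38 with STAR 2.5.1b and quantified genes with RSEM 1.2.28; the annotation release is not given in the sources used here. The deposited expected counts are RSEM's estimated counts per gene, unnormalized; 91.4% to 98.0% of them were whole. The deposited TPM and FPKM values divide them by effective length and by the library's total. Gene symbols came from GENCODE M21 (50376 of 50600 identifiers matched without version).

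Expected counts were rounded, scaled by TMM (edgeR 4.0.16) and fitted with limma 3.58.1 (voom, lmFit, eBayes; R 4.3.3), with 1 mean per time point over the 28 samples of a cell type, or over all 56 samples for differences between cell types. Genes with a mean of at least 0.5 FPKM in the cell type (in either, for the 56-sample fit) were tested. Calls needed a 2-fold change and an adjusted p (Benjamini-Hochberg, all genes tested) no higher than 0.01. Log2 fold changes, SEs and adjusted p-values are printed for a member where its fold-change reached 2 or its adjusted p was at most 0.05, and for list genes outside the 7 where they were called; the most alike genes are the top 3, of which 1 is not reported here. edgeR's quasi-likelihood test and DESeq2 1.42.0 were alternatives. The fits were tested on simulated counts. The members and gene lists were chosen with earlier results of these data known. Replicates are separate mice per the labels. Promoters came from RefSeq (GRCm38.p6). Python 3.11.15 with pandas 2.3.3 and NumPy 2.4.6 was used for descriptions and matplotlib for plots.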

Additional observations from a re-analysis of the deposited data

How the results depend on the processing

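In 8 of the 15 comparisons the number of the 7 genes called was the same under every alternative run. No member was called in any of these, and each comparison with a called member changed under some alternative. For D6 against D-2 in cTECs (1 called) it was 0 with limma-trend on FPKM (a pseudocount of 0.5 or 0.1) and with no filter, 2 with sample quality weights, with the compared time points alone or without the libraries high in immediate-early and heat-shock genes (chosen after seeing the data), 3 at an adjusted p of 0.05, and 0 to 2 when 1 replicate was left out. For D-2 against NPC in mTECs (1 called) it was 0 with limma-trend or the compared time points alone, 2 at an adjusted p of 0.05 or without those libraries, and 0 to 1 when 1 replicate was left out. For D3 against D-2 in mTECs (0 called) it was 1 with DESeq2, quality weights, the adjusted p of 0.05, the replicate block or without those libraries, and 0 to 1 when 1 replicate was left out. For D6 against D-2 in mTECs (0 called) it was 1 with DESeq2 or the adjusted p of 0.05 and 3 with quality weights. It became 1 for D0 against D-2 in mTECs with quality weights and for D12 against NPC in mTECs without those libraries, with 0 to 1 when 1 replicate was left out of the latter. For D-2 and for D12 against NPC in mTECs, the gene gained without those libraries was *Areg*, whose remaining NPC samples were at 0. For D6 against D-2 in cTECs it was *Per1*, whose highest D6 sample was then left out. For the level in cTECs against mTECs (1 called) it was 0 with edgeR, DESeq2, limma-trend, no filter or without those libraries, and 0 to 1 when 1 replicate was left out. In these alternatives the log2 fold change of *Klf9* was -1.94 to -1.34 for D6 against D-2 in cTECs and 1.503 to 1.88 for D-2 against NPC in mTECs.

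Reversed fits were all of low genes far from the threshold. *Areg* in late mTECs against NPC gave -1.77 with edgeR and -1.73 with DESeq2, and its cTEC minus mTEC change from NPC to D-2 gave 2.03 and 2.04; the cause was not tested. With 1 replicate left out, *Zbtb16* spanned -0.24 to 3.98 for D12 against NPC in cTECs, -0.35 to 3.24 for D12 against NPC in mTECs and -0.32 to 3.26 for late samples against NPC in mTECs. Of 688 values of named genes under alternatives, 634 kept their direction and side of the thresholds, 23 lost a call, 24 gained one and 7 reversed. The 23 were all of *Klf9* (D6 against D-2 in cTECs, D-2 against NPC in mTECs) and *Sgk1* (level between cell types). The other named results had no call to lose. In TPM, 54 of 55 ratios of means moved by less than the replicate spread.

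Counts over all genes moved more; the range over the other alternatives is followed by that with 1 replicate left out. D6 against D-2 in cTECs called 250 genes (74 with no filter to 568 at an adjusted p of 0.05; 120 to 269), D-2 against NPC in mTECs 101 (0 with the compared time points alone to 306 at an adjusted p of 0.05; 2 to 273), and the level between cell types 3099 (2508 to 4015, then 2804 to 3254). D-2 against NPC in cTECs called 15 (0 to 120, then 1 to 28) and D3 against D-2 18 (0 to 198, then 3 to 63) in cTECs and 2 (0 to 238, then 0 to 217) in mTECs. D6 against D-2 in mTECs called 2 (2 to 771, then 0 to 2), and late samples against NPC 11 (0 to 216, then 0 to 79) in cTECs and 1 (0 to 170, then 0 to 168) in mTECs. D0 against D-2 called 0 (0 to 15 in cTECs and 0 to 78 in mTECs, then 0), D12 against NPC 0 (0 to 1, then 0, in cTECs and 0 to 90, then 0 to 109, in mTECs), and the differences between cell types 0 (0 to 27, then 0 to 26) at D-2 and 1 (0 to 57, then 0 to 3) at D6. Whether equal title numbers mark 1 mouse is not stated in the labels, and the data do not settle it: the deviations of 16 same-numbered cTEC and mTEC pairs had r from -0.17 to 0.17 (median 0.043, over 0.1 in 4), against -0.23 to 0.34 (median -0.018, over 0.1 in 2) for 38 pairs with other numbers. With the title number as a replicate block, *Klf9* at D6 against D-2 in cTECs had an adjusted p of 0.0332 and *Per1* 0.00137, so the count there stayed at 1, and it was 1 for D3 against D-2 in mTECs; with equal numbers at a time point taken as a block in the 56-sample fit (correlation 0.0286) no member's call changed. *Areg* and *Zbtb16* have the lowest counts of the 7 genes, and *Areg* was at 0 in the deepest cTEC library too (44409019 counts).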
